A study of Mus musculus with 4 samples.

Results

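Dll4, Hes5 and Heyl, a ligand gene and 2 effector genes of the Notch pathway, were the members examined here. They were taken by gene symbol from the authors' deposited tables of genes lower and higher in mouse embryonic stem cells that had received an shRNA to Mrhl, a long non-coding RNA, and they are 3 of 1132 distinct symbols listed there. The cells were E14tg2a, an established embryonic stem cell line of strain 129/Ola, grown on gelatine. The 2 groups were sh-Mrhl, transfected with the shRNA that the treatment protocol names shRNA 4, and scrambled, transfected with a scrambled shRNA. Each group had 2 RNA sequencing libraries, taken 48 hours after transfection. A label field calls the constructs a lentivirus, whereas the protocol describes a transient transfection, and 1 shRNA in 1 cell line was used. Mrhl is known as a nuclear RNA whose locus lies in an intron of the phosphorylase kinase gene Phkb.

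The members were chosen for being listed, so their directions and values are a description and were not tested. Each gene has 1 signed fold-change value in the authors' deposited tables, with no value per library, expression level, read count or p-value analysed here. The depth behind a value and its error between libraries are therefore unknown. The scale, log2 or signed linear, is not stated in the tables either. "Listed as higher" and "listed as lower" below mean the authors' listing for sh-Mrhl relative to scrambled, as the table titles and signs give it.

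Notch signalling works between touching cells. A ligand of the Delta or Jagged kind on one cell binds a Notch receptor on its neighbour, the receptor is cut, and its intracellular part enters the nucleus and joins the DNA-binding protein RBPJ on target genes. The best known targets are the HES and HEY genes, which encode basic helix-loop-helix (bHLH) repressors that act on proneural and other lineage genes. In mouse embryonic stem cells the pathway is known for favouring neural commitment once self-renewal is lost.

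Promoter sequence is shown first, since RBPJ-type sites near a start site are what a Notch target gene is usually searched for. RefSeq promoter windows on GRCm38.p6 run from 250 bases before to 50 after each annotated start. Windows of 2 of the 3 members, Hes5 and Dll4, were matched by symbol. Heyl had no window, so its promoter could not be searched, and the 2 shown were not picked by direction. The Hes5 window is chr4:154960673-154960972 on the plus strand and the Dll4 window chr2:119325534-119325833 on the plus strand. Capitals mark the RBPJ-type motif GTGGGAA, searched on both strands, so that the first Hes5 match appears as its reverse complement.
Hes5: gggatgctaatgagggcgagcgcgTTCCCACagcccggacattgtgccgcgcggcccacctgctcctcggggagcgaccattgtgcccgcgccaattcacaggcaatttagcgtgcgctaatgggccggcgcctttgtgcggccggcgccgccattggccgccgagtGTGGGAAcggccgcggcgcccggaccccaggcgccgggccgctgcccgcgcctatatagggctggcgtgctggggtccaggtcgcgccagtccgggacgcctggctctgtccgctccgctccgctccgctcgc
Dll4: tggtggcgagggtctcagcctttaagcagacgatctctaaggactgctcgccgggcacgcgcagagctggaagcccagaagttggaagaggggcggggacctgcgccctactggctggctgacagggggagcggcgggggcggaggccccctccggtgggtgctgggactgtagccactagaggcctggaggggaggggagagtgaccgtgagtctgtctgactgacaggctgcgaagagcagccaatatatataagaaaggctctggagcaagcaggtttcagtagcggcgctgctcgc

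The Hes5 window held 2 matches to GTGGGAA, whereas the Dll4 window held 0. With the start base counted as 0, the Hes5 matches lay from -226 to -220 on the opposite strand and from -83 to -77 on the gene's own strand. Of all 32851 windows in the table, 2097, or 6.38%, held the motif at least once, and 84, or 0.256%, held it at 2 or more positions. Among the 19 windows of Notch ligands, receptors and HES/HEY effectors, which cover 16 of 21 such genes, 3 windows held it, those of Hes5, Hey2 and Hes7. The genes without a window were all HES/HEY genes, Heyl, Hes1 and Hey1 among them, and were not searched. Hey2, a cardiovascular HEY gene, had 2 matches, and Hes7, a gene of the somite segmentation clock, had 1. Neither Hey2 nor Hes7 was listed in either direction. The sites are given with 10 flanking bases on each side, read on the strand of the motif and with the motif in capitals, to compare the bases around it.
Hes5, distal site: tgtccgggctGTGGGAAcgcgctcgcc
Hes5, proximal site: gccgccgagtGTGGGAAcggccgcggc
Hey2, distal site: tggcagaggcGTGGGAAtgccaccgcg
Hey2, site at the start: gggctgcagcGTGGGAAagaacctcca
Hes7: agccccaaatGTGGGAAgtgaggggag

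These sites lie at chr4:154960687-154960713 on the minus strand and chr4:154960830-154960856 on the plus strand for Hes5. Those of Hey2 lie at chr10:30842974-30843000 on the plus strand and chr10:30842771-30842797 on the minus strand, and that of Hes7 at chr11:69120263-69120289 on the minus strand. A match is a run of letters and was not examined for binding.

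**Figure D1:**
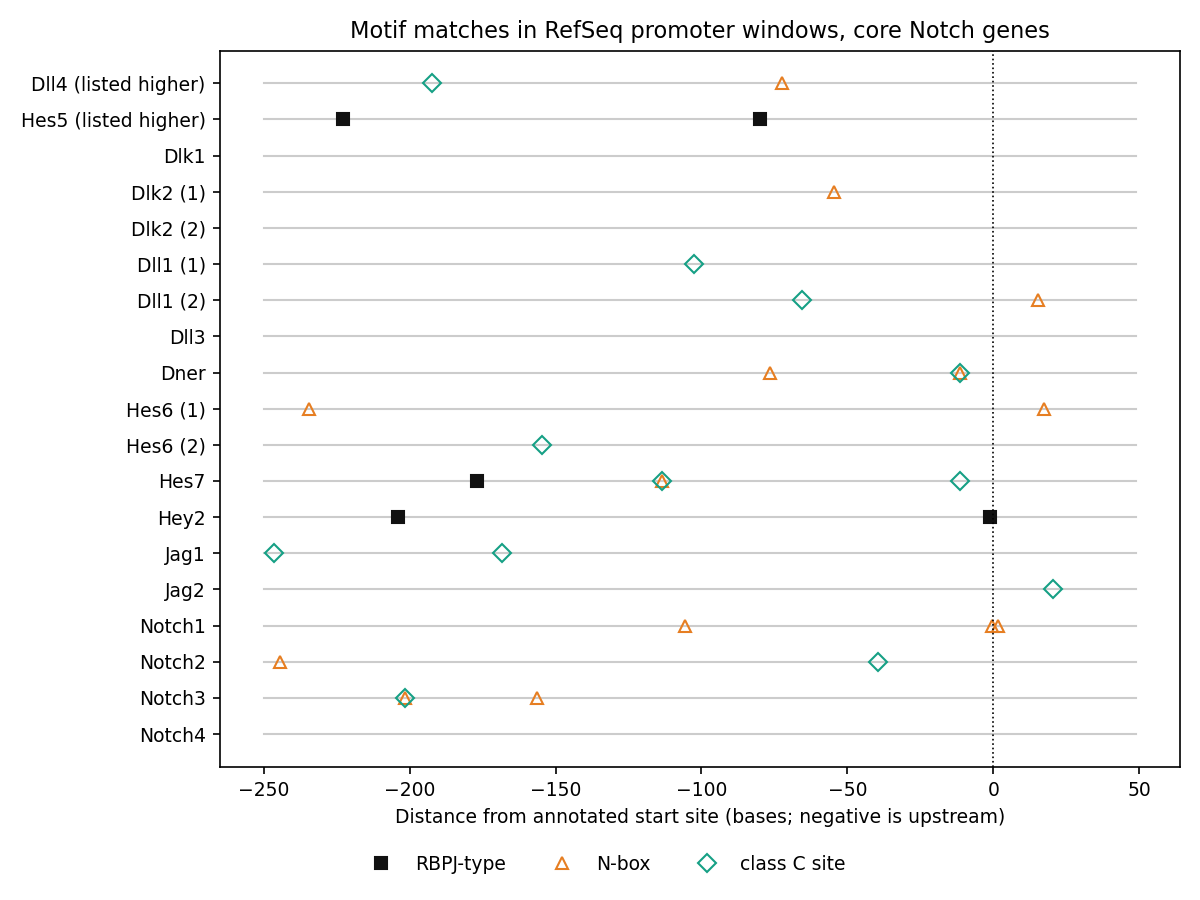
Each row is 1 RefSeq promoter window of a Notch ligand, receptor or HES/HEY gene, and the horizontal axis is the distance in bases from the annotated start site. Filled squares mark the RBPJ-type motif, which stands at 2 positions in Hes5 and in Hey2 and at 1 in Hes7, while open triangles and diamonds mark the N-box and the class C site.

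The sites that HES and HEY repressors are known to bind were also searched on both strands, the N-box as CACNAG and the class C site as CACGNG. Both motifs cover the hexamer CACGAG, so a match can belong to both. The Dll4 window held 1 N-box match, from -75 to -70, and 1 class C match, from -195 to -190. The Hes5 window held 0 of either. Over all windows, 42.5% held an N-box match and 27.5% a class C match, so the Dll4 matches are of a common kind. Base composition differed between the windows. The Hes5 window had 72.7% G and C, above 93.9% of all windows, and an observed-over-expected CpG ratio of 1.04. The Dll4 window had 63.7% G and C, above 79.1% of all windows, and a CpG ratio of 0.595. The medians over all windows were 52.7% and 0.384.

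The ligand and 1 of the 2 effectors were listed as higher, and the other effector was listed as lower. Dll4 encodes a Delta-type ligand best known from arterial endothelium and from the thymus, and it was listed as higher at 2.46 in the authors' deposited table. Hes5, a HES repressor known for keeping neural progenitors undifferentiated, was listed as higher at 1.96 in the authors' deposited table. Heyl, a HEY-family gene known from somites and from the smooth muscle of vessels, was listed as lower at -1.85 in the authors' deposited table. Each symbol stood in 1 row only and in 1 of the 2 tables. The 2 effectors thus had values of similar size and opposite sign. If the values are log2, they stand for 5.52-fold for Dll4 and 3.89-fold for Hes5, higher in sh-Mrhl, and for 3.62-fold for Heyl, lower in sh-Mrhl. If they are signed linear folds, the same values stand for 2.46-fold, 1.96-fold and 1.85-fold.

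For background, 2.51% of the 21924 annotated protein-coding symbols were listed in either direction, 0.935% as higher and 1.58% as lower. The genes that the authors tested are not known here, so these shares are over annotated and not over tested symbols. Nothing is read from them for the 3 members, which were chosen from the lists.

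Dll4 stood further into its list than either effector. Of the 411 symbols listed as higher, 62, or 15.1%, had a larger value than Dll4 and 179, or 43.6%, a larger value than Hes5. Of the 722 symbols listed as lower, 411, or 56.9%, had a larger absolute value than Heyl. The median absolute value was 1.94 among higher and 1.91 among lower symbols, so Hes5 and Heyl both lay near the middle of their lists.

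Hes5 lay in the most densely filled stretch of 0.1 units in the higher list. Values from 1.9 to under 2 were held by 100 of the 411 higher symbols, or 24.3%, against 49 of the 722 lower ones, or 6.79%. The neighbouring stretch from 1.8 to under 1.9 held 46 higher symbols, or 11.2%, and 84 lower ones, or 11.6%, and Heyl was 1 of these 84. Dll4 shared the stretch from 2.4 to under 2.5 with 15 higher symbols in all. No listed symbol had an absolute value under 1.5. The protein-coding genes nearest to that edge in the authors' deposited tables were Wfdc1, at 1.503, and Syndig1l, at -1.504, beside the gene model 1700020L24Rik, at -1.5003. Dll4 lay 0.964 units beyond 1.5, Hes5 0.461 and Heyl 0.355.

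**Figure D2:**
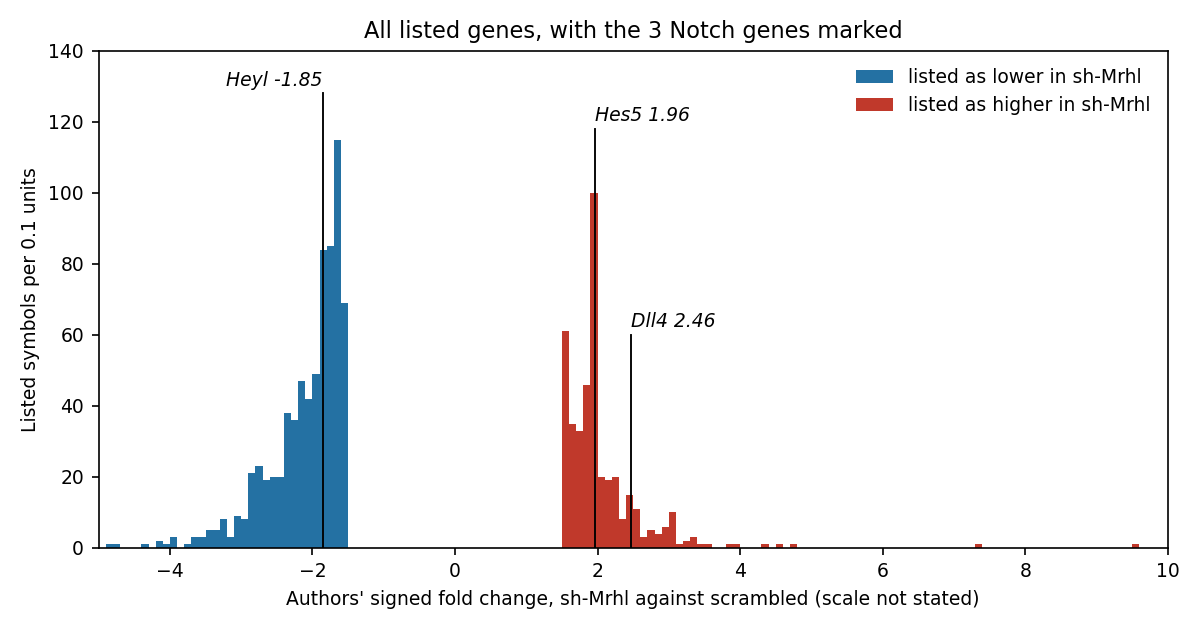
The histogram counts listed symbols per 0.1 units of the authors' signed fold change, whose scale is not stated, with higher symbols in red and lower ones in blue. Vertical lines mark Dll4 at 2.46, Hes5 at 1.96, inside the tallest bar of the higher list, and Heyl at -1.85.

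The listed protein-coding genes with the closest values included no gene of the Notch lists examined below. This says little, since those lists held no listed gene besides the 3 members. Likeness here is the absolute gap between the authors' values in 1 comparison, and 3 genes were taken for each member. Around Dll4, the authors' deposited table had Hal, a histidine-degrading enzyme gene, at 2.47, the microtubule-associated ubiquitin ligase gene Mid2 at 2.46 and the aldehyde oxidase gene Aox3 at 2.47. Around Hes5 it had Elobl at 1.96, the kallikrein gene Klk1 at 1.96 and Lrrc36 at 1.96, as given in the authors' deposited table. Around Heyl were the retinoic acid receptor gene Rarb at -1.85, the homeobox gene Dlx3 at -1.85 and Lrrc55, a potassium channel accessory gene, at -1.85 in the authors' deposited table. The gaps ran from 0.00046 for Rarb to 0.00599 for Aox3.

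The other Notch pathway genes of the lists examined here were not listed. Of 8 ligand and ligand-like genes, Dll4 was the only one in either table, so Dll1, Dll3, Jag1, Jag2, Dlk1, Dlk2 and Dner had no value. None of the 4 receptor genes, Notch1 to Notch4, was listed. Among the 9 HES and HEY genes, Hes5 was higher, Heyl was lower and 7 were unlisted, including Hes1, the effector most often associated with embryonic stem cells, and Hey1. The 7 glycosylation genes, such as the fringe gene Lfng, had 0 listed members, as had the 18 genes of ligand and receptor endocytosis, such as Mib1 and Numb. The same held for the 10 genes of receptor proteolysis, such as Adam10 and Ncstn, and for the 22 of the nuclear complex, such as Rbpj and Maml1. Neither the 6 annotated TLE corepressor genes, whose products HES proteins recruit, nor the 11 other known targets, such as Nrarp and Efnb2, had a listed member.

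Over these 9 lists together, 3 of 95 annotated genes were listed, or 3.16%, beside 2.51% of all protein-coding symbols. Over the 21 ligand, receptor and HES/HEY genes alone, the share was 14.3%. In both cases the 3 were the members themselves, and of the other 92 genes 0 were listed. The shares thus depend on the breadth of the list and on members chosen for being listed, and nothing is read from them. An unlisted gene is not thereby unchanged, since its value and the listing rule were not analysed here. The levels of the receptors and of RBPJ in these cells were likewise not measured by the tables used.

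**Figure D3:**
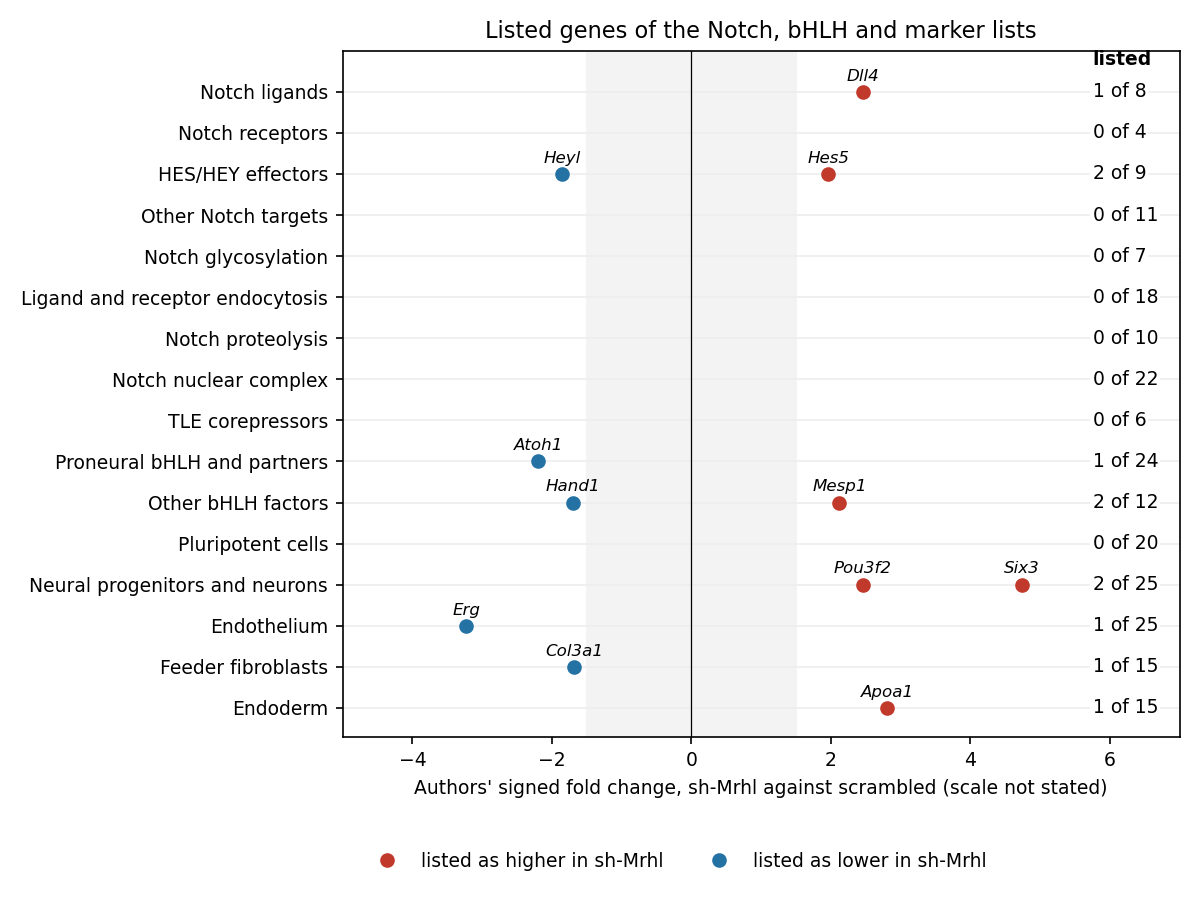
Rows are gene lists of the Notch pathway, bHLH factors and cell markers, points are their listed genes at the authors' signed fold change, and the numbers at the right count listed among annotated genes. The grey band spans -1.5 to 1.5, where no listed value lies, and in the 9 Notch lists at the top the points are Dll4, Hes5 and Heyl alone.

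Genes that HES and HEY repressors are known to act on, or that share their bHLH fold, had 3 listed members in 2 lists. Of 24 proneural bHLH genes and their partners, Atoh1 alone was listed, as lower at -2.19 in the authors' deposited table. Atoh1 drives hair cell and cerebellar granule neuron fates, and in the mouse inner ear it is a known target of repression by Hes5 and its relatives. Neurog1, Neurog2 and the Id genes were not listed. Of 12 other bHLH factors, Mesp1, known from nascent and cardiac mesoderm, was at 2.12 and Hand1, a cardiac and trophoblast factor gene, at -1.70 in the authors' deposited tables. The listed shares were 4.17% of the proneural list and 16.7% of the other bHLH factors, against 2.51% of all protein-coding symbols. The lists are short and were not tested. Atoh1 had a sign opposite to Hes5 and equal to Heyl, and whether it is related to either in these cells was not tested.

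Markers of pluripotent cells, neural progenitors and neurons, endothelium, feeder fibroblasts and endoderm were counted in the same way. No list covered somites, vessel smooth muscle or thymus. The background was 2.51% listed in either direction, 0.935% as higher and 1.58% as lower. Of 25 neural progenitor and neuron markers, 2 were listed, or 8.0%, both as higher, with Six3 at 4.74 and Pou3f2 at 2.46 in the authors' deposited table. Sox1, Pax6 and Nes, markers of the neural progenitors in which Hes5 is usually found, were not listed. Of 25 endothelial markers only Erg was listed, or 4.0%, as lower at -3.23 in the authors' deposited table. Erg encodes an ETS factor known in endothelial cells to act at Dll4. Here its sign was opposite to that of Dll4, and a relation between them was not tested. Pecam1, Cdh5, Kdr and Tek were not listed. Of 15 feeder fibroblast markers Col3a1 was listed, at -1.69, and of 15 endoderm markers Apoa1, at 2.81, in the authors' deposited tables, or 6.67% of each list. These shares rest on 1 or 2 genes each and were not tested. None of 20 pluripotency markers, Pou5f1 and Nanog among them, was listed, and without expression levels the labelled cell type could not be checked against them. In bulk libraries, more cells of a type and more RNA per cell cannot be told apart. Whether cells of another type had a part in the values of Dll4, Hes5 or Heyl was not tested.

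The 3 genes differ in size and setting. Positions are those of GENCODE M21, whose assembly GRCm38 is the mm10 of the submitters' processing notes. Dll4 (ENSMUSG00000027314.6) lies on chromosome 2 from 119325784 to 119335962, with 11 exons and 3747 exonic bases in its coding transcript. Hes5 (ENSMUSG00000048001.7) lies on chromosome 4 from 154960923 to 154962371, with 3 exons and 1273 exonic bases. Heyl (ENSMUSG00000032744.4) lies on chromosome 4 from 123233556 to 123249875, with 5 exons and 4537 exonic bases. All 3 are on the plus strand. Hes5 spans 1449 bases, and only 5.20% of protein-coding genes span less, against 35.9% for Dll4 and 48.2% for Heyl. A short transcript collects fewer reads at the same level, and the reads behind the Hes5 value are not known here.

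Dll4 and Hes5 each overlap a non-coding gene on the opposite strand, and Heyl overlaps no annotated gene. The share of all genes with such an overlap was not counted, so nothing is read from this. Gm14207 shares 411 bases with the start of Dll4, and Gm20421 shares 756 bases with Hes5. Neither non-coding gene was listed. Whether the authors counted by strand is not stated in what was used here, and without strand the reads of such overlapping genes cannot be told apart.

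Near the members, 1 protein-coding gene was listed. Among protein-coding neighbours within 500 kb, 1 of 61 was listed, or 1.64%, against 2.51% of all protein-coding symbols. The share rests on that 1 gene and was not tested. Within 500 kb of Dll4 there were 42 other annotated genes, of which 0 were listed, and within 500 kb of Heyl there were 32, again with 0 listed. Within 500 kb of Hes5, 1 of 26 was listed, Tnfrsf14, a receptor gene of the tumour necrosis factor family, 32.4 kb away and listed as higher at 1.52 in the authors' deposited table. Pank4, the protein-coding gene nearest to Hes5 at 1751 bases, was not listed, nor was Chac1 near Dll4 or Pabpc4 near Heyl.

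The nearest listed gene on each side had the same sign as its member in 6 of 6 cases, at distances up to 6679 kb. Beside Tnfrsf14, Hes5 had the pseudogene Gm13171 at 1.94 in the authors' deposited table, at 540 kb. Dll4 had the neuroendocrine secretory gene Scg5 at 3.05 and the non-coding AV039307 at 2.86 in the authors' deposited table, at 5497 and 1515 kb. Heyl had Zmynd12 at -1.76 and Spocd1, a germ cell gene of piRNA-directed methylation, at -1.996 in the authors' deposited table, at 3766 and 6679 kb. This sharing of sign was seen after the values were known and was not tested. Over all listed symbols 36.3% were higher. On chromosome 4, which holds both effectors 31711048 bases apart, 61 symbols were listed, 20 as higher and 41 as lower. Between Heyl and Hes5 there were 4 higher and 11 lower symbols.

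**Figure D4:**
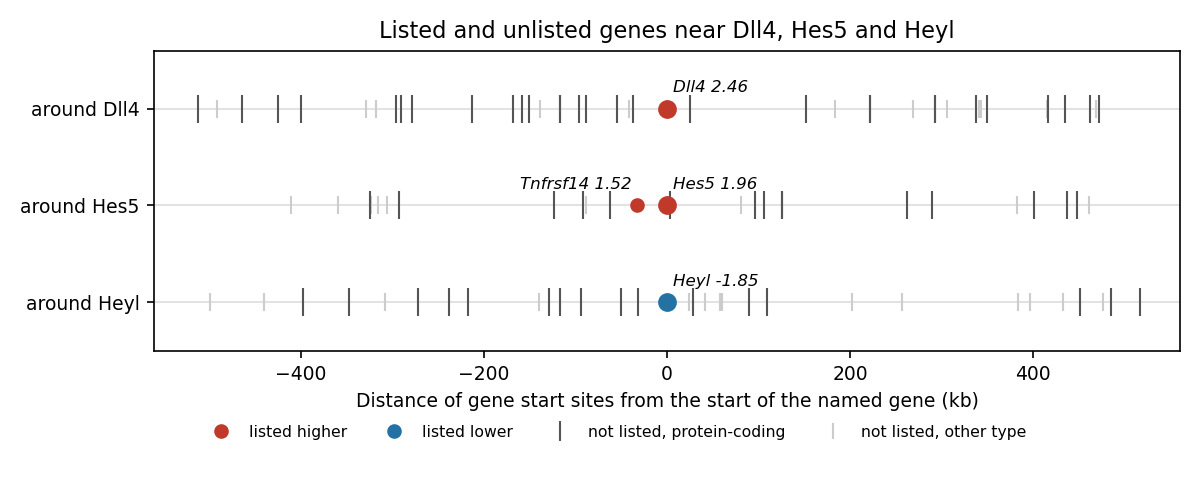
Ticks are start sites of unlisted genes whose bodies lie within 500 kb of each member, placed by distance in kb from the member's start, and circles are listed genes in red where higher and blue where lower. Tnfrsf14, at 1.52, is the 1 listed neighbour, beside Hes5, and none is seen around Dll4 or Heyl.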

How the data were processed

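RNA from 2 sh-Mrhl and 2 scrambled samples was sequenced, and the submitters' processing notes name TopHat2, Cuffdiff and mm10. No source used here states versions, annotation, the test or the rule for listing a gene. The authors deposited 2 tables with 1 signed fold-change score per gene, and the scale of this deposited score is not stated per the file headers. With no values per library, the planned test was not possible and depth is unknown. Values had at most 6 significant digits, which does not settle the scale.

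Repeated symbols were reduced to 1 per table. Symbols were matched to GENCODE M21 and to RefSeq promoter windows of 300 bases. The members and all 16 gene lists were chosen with earlier results of these data known. Named genes are the members, each listed gene of the lists, the 3 listed protein-coding genes with the closest value to each member, and the nearest listed gene on each side. Genes at the listing edge and unlisted examples were named after the values were seen. Motif search, ranks and list counts were tested on simulated data. Alternatives changed the listing threshold, gene set, list breadth, symbol matching and motif length. Computations used Python 3.11.15 with numpy 2.4.6 and pandas 2.3.3, intervals scipy 1.17.1, and figures matplotlib 3.10.9.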

Additional observations from a re-analysis of the deposited data

How the results depend on the processing

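With absolute values of at least 2, 1 of the 3 members, Dll4, would be listed, and the Notch lists would hold 1 higher and 0 lower genes, because Hes5 and Heyl have smaller values. Without unnamed gene models, 19.1% of higher genes had a larger value than Dll4. Among protein-coding genes only, 51.7% of higher genes had a larger value than Hes5. The shorter motif TGGGAA was in 25.6% of all promoter windows, by its construction, and left the 2 matches in Hes5 and 0 in Dll4. The other 13 alternative values run, these matches included, on list breadth, letter case, repeated rows, gene sets and motif length, stayed within the limits set for calling a value moved. For list breadth only counts were compared. These could not change, since the narrower list of 21 genes holds all 3 members and no other gene of the broader list was listed. The listed share did change, from 3.16% to 14.3%. No paired analysis was possible because each gene has a single value over both libraries of a group or an unstated choice of them. That also kept the leaving out of replicates, other normalizations, filters and pseudocounts from being run, and the planned comparison of protein sequences was not run. What depth limits is not known, as no read numbers were in the tables analysed.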

Other observations

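Promoter windows of listed protein-coding genes were searched in the same way where a window was available. Windows were available for 155 of 205 genes listed as higher and for 242 of 346 listed as lower. The others, Heyl among them, were not searched. GTGGGAA was in 10 of 183 windows of genes listed as higher, or 5.46%, in 17 of 292 windows of genes listed as lower, or 5.82%, and in 6.38% of all windows. At 2 or more positions it was in 1 searched window of the higher genes, that of Hes5, and in 2 searched windows of the lower genes. N-box matches were in 42.6% of higher and 45.2% of lower windows, and class C matches in 25.1% and 25.0%. These shares are descriptions, and 1 gene can have several windows.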
